A study of Homo sapiens with 30 samples.

Results

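GDF15 encodes growth differentiation factor 15, a secreted hormone of the TGF-beta superfamily. It was followed here as 1 gene of the 38122 in the deposited table, by its symbol and its identifier ENSG00000130513, across 30 libraries of 3 cancer cell lines. The hormone is made as a precursor that furin-type proteases cleave, and it acts on the brainstem through the receptor GFRAL with the coreceptor RET. High blood levels lower appetite and body weight, and they accompany cancer cachexia. The gene is known as a direct target of ATF4 and its partner CHOP (encoded by DDIT3), which act in the integrated stress response to amino acid shortage and to misfolded protein.

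The study measured RNA from HCT116, a colon carcinoma line, from FaDu, a hypopharyngeal squamous carcinoma line, and from SiHa, a cervical squamous carcinoma line. The 6 groups were HCT116, FaDu and SiHa cells at pH 6.5 and the same lines at pH 7.4, with 5 libraries each. The acid-adapted cells had lived at pH 6.5 for 1 month or longer before RNA was taken. All groups shared DMEM with 10% serum, 10 mM glucose, 2 mM glutamine, 25 mM HEPES and 25 mM PIPES, at 37 °C and 5% CO2. The sources used here do not say whether replicates are separate cultures or separate adaptations to acid, so each p-value speaks only of the spread among replicate libraries, which may be technical. The title names acid-adapted tumours and the loss of fat tissue through lipolysis in fat cells as the study's subject.

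Libraries held 21.0 to 55.7 M reads. Genes restricted to 1 line were used to read each library's identity: 33 for HCT116, 24 for FaDu and 28 for SiHa, with GDF15 left out. Each library's level of these genes was set against the mean of 1 reference group of that line: HCT116 at pH 7.4, FaDu at pH 6.5 or SiHa at pH 6.5. The median ratio over the genes is called the share of the line. In 7 libraries the shares went against the label. HCT116 pH 6.5 replicates 5, 6 and 7 had HCT116 shares of 58.8%, 1.94% and 0.581%, and SiHa shares of 37.5%, 101% and 104%. FaDu pH 7.4 replicates 2, 3, 4 and 5 had FaDu shares of 10.9%, 66.6%, 50.2% and 27.7%, and HCT116 shares of 80.4%, 30.6%, 42.7% and 61.9%. These 7 libraries were set apart, which left 23: 2 of HCT116, 5 of FaDu and 5 of SiHa at pH 6.5, and 5 of HCT116, 1 of FaDu and 5 of SiHa at pH 7.4. In these 23 the share of another line was at most 0.0708%. In the reference groups a share of at most 1% was set by the choice of genes. In the kept libraries outside them the highest was 0.0465%, the SiHa share of HCT116 pH 6.5 replicate 1. The SiHa share itself was 64.2% to 83.3% in SiHa at pH 7.4, against 86.1% to 104% in the reference group at pH 6.5. SMAD4, a gene that FaDu lacks, had 0 to 3.13 normalised counts in the 6 FaDu libraries kept, against 675 to 1773 in the 4 set apart. The squamous keratin and desmosome markers summed to 310793 to 571895 normalised counts in the FaDu libraries kept, against 7484 to 11054 in those of HCT116. In SiHa they summed to 16066 to 79133, and 1 of the 11 markers was at 0 there.

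GDF15 lies on the plus strand of chromosome 19 and has 2 exons with 1200 exon bases in the GENCODE basic annotation. The microRNA gene MIR3189 overlaps it on the same strand and is a separate row of the table, and the sources used here do not say how reads in both were counted. The 250 bases before its RefSeq start (GRCh38.p14, chr19:18385908-18386157, plus strand) are shown because they hold the core promoter of the gene that the results follow. Capitals mark the TATA box (TATAAA) and the GC boxes (GGGCGG on either strand), the binding motif of SP1.

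GDF15 upstream: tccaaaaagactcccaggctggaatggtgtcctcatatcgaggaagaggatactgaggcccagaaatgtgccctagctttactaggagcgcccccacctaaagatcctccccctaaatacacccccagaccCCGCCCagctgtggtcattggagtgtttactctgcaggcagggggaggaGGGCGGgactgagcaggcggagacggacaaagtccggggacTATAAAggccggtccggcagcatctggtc

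The TATA box stood at positions -29 to -24 from the start, and 14% of the 27305 genes in the promoter table had this motif on either strand in their windows of 250 bases before to 50 after a start. The GC boxes stood at -119 to -114 (minus strand) and -70 to -65 (plus strand). Of all genes 48.3% had at least 1 and 30.3% had 2 or more. A CCAAT box, not marked above, stood at -103 to -99 (minus strand), and 39.7% of genes had at least 1.

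The CARE motif (TGATGNAA on either strand), through which ATF4 binds many targets, had no match in the GDF15 window. It was found in 4.46% of all genes and in 18 of the 41 ATF4 targets in the table (43.9%). The E-box (CACGTG), EGR1 (GCGNGGGCG) and AP-1 (TGANTCA) motifs had no match in the GDF15 window either, and 8.77%, 11.2% and 9.37% of all genes had these. These counts describe letters in a short window only. For comparison with a gene whose expression is set beside GDF15, the CARE sites of CHAC1 (chr15:40953256-40953275, plus strand gene), ASNS (chr7:97872463-97872482, minus strand gene) and ATF3 (chr1:212565210-212565229, plus strand gene) are shown in the direction of the gene, with the motif in capitals. In CHAC1 the motif runs on the opposite strand.

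CHAC1 CARE site: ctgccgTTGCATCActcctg
ASNS CARE site: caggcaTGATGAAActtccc
ATF3 CARE site: tcaggaTGATGGAAggctgt

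GDF15 was among the most abundant messages of acid-adapted HCT116 cells, intermediate in FaDu and low in SiHa. HCT116 libraries at pH 6.5 had 20645 and 17867 normalised counts in replicates 1 and 3, against 7695, 6329, 6582, 7559 and 4777 in replicates 1, 3, 5, 6 and 7 at pH 7.4. Both acid libraries were above all 5 at pH 7.4. FaDu libraries at pH 6.5 had 811, 1083, 1221, 1214 and 1644 normalised counts in replicates 1 to 5, against 3637 in replicate 1 at pH 7.4. All 5 acid libraries were below the single library at pH 7.4. SiHa libraries at pH 6.5 had 18.9, 75.6, 16.1, 5.17 and 10.2 normalised counts in replicates 1, 4, 5, 6 and 7, against 51.9, 20.8, 28.2, 19.9 and 53.4 in the same replicates at pH 7.4. In SiHa the groups overlapped, with the highest and the 4 lowest values all at pH 6.5.

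**Figure D1:**
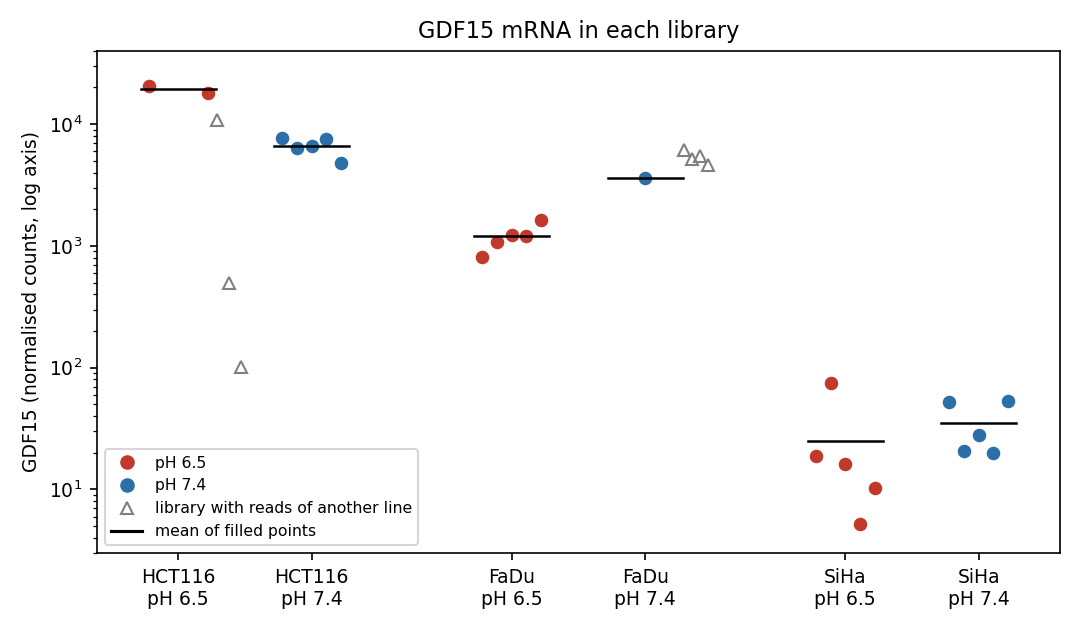
GDF15 in normalised counts (log axis) in each of the 30 libraries, by line and pH. Filled points are the 23 libraries kept, bars their means, and open triangles the 7 libraries with reads of another line; the HCT116 points at pH 6.5 lie above those at pH 7.4, the FaDu points below, and the SiHa points overlap.

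In order of level the means were 19256 ± 1964 in HCT116 at pH 6.5 (SD, n = 2), 6588 ± 1174 in HCT116 at pH 7.4 (n = 5), 3637 in FaDu at pH 7.4 (1 library), 1194 ± 301 in FaDu at pH 6.5 (n = 5), 34.9 ± 16.6 in SiHa at pH 7.4 (n = 5) and 25.2 ± 28.6 in SiHa at pH 6.5 (n = 5). Neighbours in this order did not overlap except the SiHa groups. Per exon length, GDF15 ranked 99 and 101 of 17606 protein-coding genes in the HCT116 libraries at pH 6.5 and 223 to 395 in those at pH 7.4. It ranked 1484 to 3519 in FaDu at pH 6.5 and 655 in FaDu at pH 7.4. In SiHa it ranked 9908 to 12796 at pH 6.5 and 10612 to 11786 at pH 7.4. The reads behind the values numbered 779 to 18038 in the HCT116 and FaDu libraries kept. They numbered only 6 to 54 in SiHa at pH 6.5 and 17 to 51 in SiHa at pH 7.4, where counting error alone was 13.6% to 40.8% of a value. A count of 0 would allow 1.90 to 5.01 normalised counts over the libraries, and 2.58 in the lowest SiHa library, which had 5.17 from 6 reads. In bulk RNA, fewer cells with the message and less message per cell cannot be told apart.

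At pH 6.5 the mean was 47.4 times higher in FaDu than in SiHa, and 94.8 times higher without SiHa pH 6.5 replicate 4, whose 75.6 normalised counts held the SiHa mean at 25.2, against 12.6 without it. On the log2 scale, which averages logarithms, the difference between FaDu and SiHa was 6.03 ± 0.43 (SE; limma over all genes, Benjamini-Hochberg adjusted p = 1.57e-11, with 69.1% of 22329 genes called). At pH 7.4 the mean was 189 times higher in HCT116 than in SiHa, 7.63 ± 0.43 on the log2 scale (limma adjusted p = 2.00e-13, with 72.2% of genes called). HCT116 was 16.1 times above FaDu at pH 6.5 and 1.81 times above the lone FaDu library at pH 7.4. In the SiHa libraries the share of HCT116 was 0, and that of FaDu was 0 at pH 6.5 and at most 0.0451% at pH 7.4. SiHa at pH 6.5 was a reference group, where low shares of other lines were set by the choice of genes.

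GDF15 rose 2.92-fold at pH 6.5 in HCT116, a log2 difference of 1.56 ± 0.17 (limma adjusted p = 7.87e-05, 2 libraries against 5). Of 18885 genes, 20.2% were called in this comparison. By size of change it ranked 512 among the 1721 genes called higher, and 88 among the 607 of them that averaged over 1000 normalised counts. The difference was 1.45 to 1.67 when each library was left out in turn, and every one of those 7 fits passed the threshold. In 1 fit over all 23 libraries, whose spread the lines share, its adjusted p was 0.0537. With all libraries as labelled, 3 of the 5 at pH 6.5 carried SiHa reads, and the difference turned to -1.17 (adjusted p = 0.530, with 18.2% of genes called).

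In FaDu the gene fell at pH 6.5, with a log2 difference of -1.64 ± 0.31 (SE, limma adjusted p = 0.0303, 5 libraries against 1), and 7.36% of 19170 genes were called. The pH 7.4 level was 3.05 times that at pH 6.5. By size of change it ranked 192 among the 599 genes called lower. With 1 library at pH 7.4, pH and that library cannot be told apart. The call was lost without FaDu pH 6.5 replicate 2, 3 or 4 (adjusted p = 0.0682, 0.0874 and 0.0859), while the size stayed between -1.77 and -1.51. It was also lost without a filter on low values (adjusted p = 0.0732) and in 1 fit over all 23 libraries (adjusted p = 0.165).

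SiHa showed no call, with a log2 difference of -0.88 ± 0.57 (limma adjusted p = 0.233, n = 5 each), in a comparison that called 40.8% of 18834 genes. Replicate 4 at pH 6.5, at 75.6 normalised counts, decided this: without it the difference was -1.41 (adjusted p = 0.0249). Without SiHa pH 7.4 replicates 6 and 7 the difference was -0.86 (adjusted p = 0.345). Those 2 were kept but marked as doubtful, and had the lowest SiHa shares of the SiHa libraries, 72.0% and 64.2%. The pH difference of HCT116 exceeded that of SiHa by 2.44 ± 0.71 on the log2 scale (limma interaction, adjusted p = 0.0134, with 27.3% of genes called) and that of FaDu by 3.21 ± 0.93 (adjusted p = 0.0222, with 15.7% called). Without HCT116 pH 6.5 replicate 1 the first was 2.34 (adjusted p = 0.0688) and the second 3.10 (adjusted p = 0.0680). FaDu and SiHa differed by -0.76 ± 0.85 (adjusted p = 0.593, with 16.6% called).

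In the 7 libraries set apart, the GDF15 level was set against the sum of each line's mean at that pH, weighted by its share in the library. HCT116 pH 6.5 replicates 5, 6 and 7 had 10812, 494 and 101 normalised counts, against weighted values of 11325, 399 and 138. FaDu pH 7.4 replicates 2, 3, 4 and 5 had 6085, 5179, 5477 and 4635, against 5695, 4442, 4640 and 5088. Observed over weighted was thus 0.735 to 1.24 over the 7 libraries. The 4 FaDu libraries lay above the FaDu library kept at pH 7.4 and within or below the range of HCT116 at that pH, so they add no separate reading of FaDu.

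**Figure D2:**
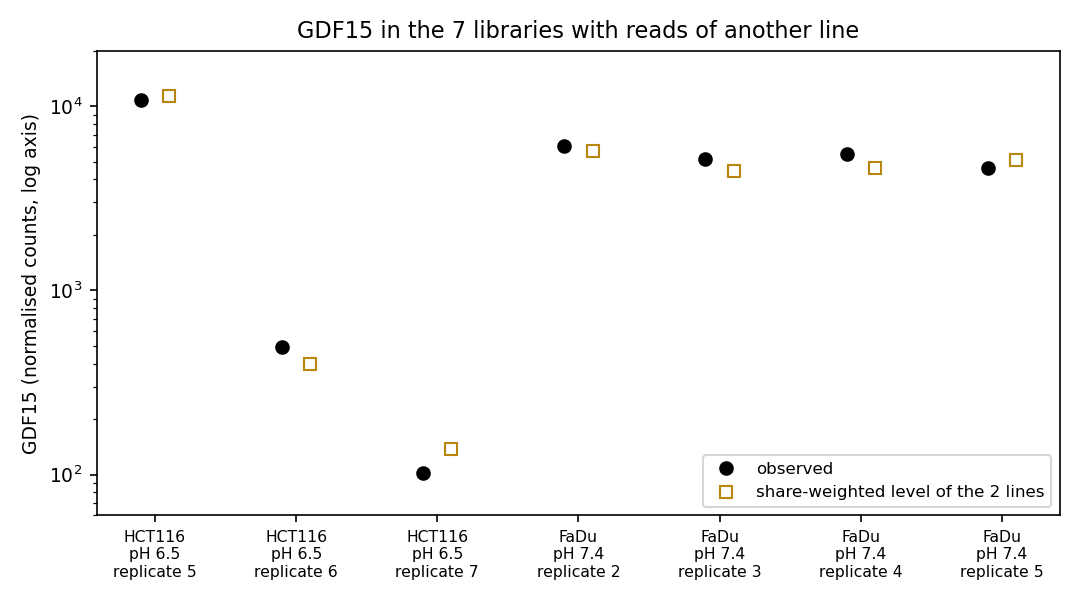
GDF15 in normalised counts (log axis) in the 7 libraries with reads of another line, observed (filled circles) and as the share-weighted level of the lines (open squares). Observed over weighted ran from 0.735 to 1.24, while the observed values themselves ran from 101 to 10812.

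CDKN1A, an inhibitor of cyclin-dependent kinases, and MDM2, a ubiquitin ligase, were followed beside GDF15. CDKN1A had 15981 and 12192 normalised counts in HCT116 libraries at pH 6.5, against 8941, 6525, 7014, 6715 and 5313 at pH 7.4. Both acid libraries were above all others, and the log2 difference was 1.04 ± 0.18 (limma adjusted p = 0.00189). That call was kept with each library left out in turn and lost in 1 fit over all 23 libraries (adjusted p = 0.0911). With all libraries as labelled the difference was -0.29 (adjusted p = 0.753). MDM2 averaged 3735 ± 347 at pH 6.5 and 3970 ± 405 at pH 7.4 (SD, n = 2 and 5) and was not called.

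In FaDu CDKN1A had 882, 530, 570, 485 and 558 normalised counts at pH 6.5, against 2097 at pH 7.4, a log2 difference of -1.83 ± 0.30 (limma adjusted p = 0.0208). The call was lost without FaDu pH 6.5 replicate 2, 3, 4 or 5 (adjusted p = 0.0501, 0.0704, 0.0650 and 0.0539), with differences of -1.81 to -1.75. CDKN1A and GDF15 were thus both below the pH 7.4 library in all 5 acid libraries. MDM2 was not called there, with a log2 difference of -0.44 ± 0.13 (limma adjusted p = 0.0791).

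In SiHa CDKN1A had 8125, 5101, 3853, 2572 and 1607 normalised counts at pH 6.5, against 18613, 5953, 8270, 8048 and 11755 at pH 7.4, with a log2 difference of -1.41 ± 0.40 (limma adjusted p = 0.0146). Only replicate 1 at pH 6.5 lay within the range of pH 7.4. MDM2 also fell, with a log2 difference of -0.63 ± 0.13 (limma adjusted p = 0.00313), and had 1061 to 1136 normalised counts at pH 6.5, against 1370 to 2254 at pH 7.4. GDF15 in the same comparison was not called, as given above.

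Among single SiHa libraries at pH 7.4, replicates 1 and 7 had the highest GDF15, at 51.9 and 53.4 normalised counts, and the other 3 had 19.9 to 28.2. SiHa replicate 1 at pH 7.4 also had 47281 normalised counts of EGR1, an immediate-early factor, against 559 to 1461 in the other 4, while replicate 7 had 559. The part of this difference in the GDF15 values was not tested.

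Over all gene lists, 40 of the 51 genes called in FaDu lost their call when at least 1 single library was left out, as did 19 of 28 in HCT116 and 8 of 59 in SiHa.

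ATF4 targets serve amino acid synthesis, tRNA charging and stress control. In FaDu 26 of 51 fell at pH 6.5 and 0 rose, with a median log2 difference of -0.997, where 3.12% of all genes fell and 4.24% rose. CHAC1, which degrades glutathione, had 227, 125, 109, 124 and 147 normalised counts at pH 6.5, against 1363 at pH 7.4, a log2 difference of -3.26 ± 0.37 (limma adjusted p = 0.0102). The difference was -4.59 for INHBE, an inhibin beta subunit, -3.47 for NUPR1, a stress-induced chromatin protein, and -3.43 for STC2, a secreted glycoprotein. DDIT3, TRIB3, a pseudokinase that restrains ATF4, and ASNS, asparagine synthetase, fell with differences of -2.69, -2.14 and -1.75. ATF4 itself had 16902 to 22224 normalised counts at pH 6.5, against 39807 at pH 7.4, and fell by 1.14. Without replicate 3 or 4 at pH 6.5 the calls of STC2, TRIB3, ASNS and ATF4 were lost, with adjusted p of 0.0594 to 0.0686, and that of ATF4 also without replicate 5 (adjusted p = 0.0508). ATF3, an ATF4 target and stress factor, had 365 to 646 at pH 6.5, against 592 at pH 7.4, and was not called.

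All of this again rested on the single FaDu library at pH 7.4. DDIT3 had 1405 normalised counts there, against 108 to 212 in the 4 libraries set apart, whose FaDu shares were 10.9% to 66.6%. CHAC1 had 1363, against 306 to 529. With all libraries as labelled, 2 of 51 ATF4 targets were higher and 14 lower, where 24.0% of all genes rose and 22.3% fell. DDIT3 then stood at -0.21 and NUPR1 at 0.46, neither called. The source of this difference was not tested. When each FaDu pH 6.5 replicate was left out in turn, the number of ATF4 targets called lower grew and shrank with the number of all genes called lower. Their median stayed between -1.12 and -0.92. Chaperones, folding enzymes and other targets of the unfolded protein response fell in the same comparison, 16 of 20 with a median of -1.28, where 3.12% of all genes fell. They included HSPA5, the chaperone BiP, with -2.20, and XBP1, a transcription factor of this response, with -1.65. That count also moved with the number of all genes called lower when the same libraries were left out, and the median stayed between -1.40 and -1.22. In HCT116 3 of 19 rose and 1 fell, where 9.11% of all genes rose and 11.1% fell. These calls were lost without pH 6.5 replicate 1. CRELD2, DNAJB9, HSPA5 and HSPA13 then stood at 0.58, 0.51, 0.26 and -0.48, against 0.81, 0.66, 0.52 and -0.73. In SiHa 8 of 20 rose and 3 fell, where 19.7% of all genes rose and 21.1% fell. An ATF4 target score was taken per library, as the mean over the list's genes of each gene's log2 deviation from its mean over the 23 libraries. Within FaDu at pH 6.5 the library with the highest ATF4 target score, replicate 1 at 0.38, had the lowest GDF15, 811 normalised counts. Replicates 2 to 5 scored -0.03 to 0.04 and had 1083 to 1644 normalised counts of GDF15. No correlation was computed in FaDu, whose pH groups did not overlap in either measure.

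**Figure D3:**
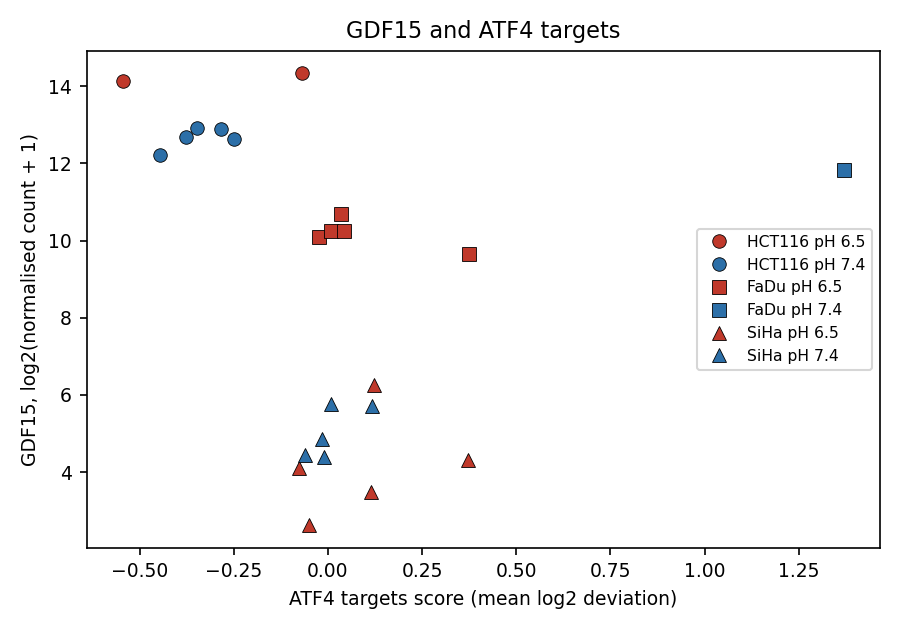
GDF15 as log2(normalised count + 1) against the mean log2 deviation of 51 ATF4 targets in the 23 libraries kept, with line as shape and pH as colour. The 3 lines form separate clusters in GDF15, and the FaDu pH 7.4 library stands alone at an ATF4 target score of 1.37.

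In HCT116 4 of 49 ATF4 targets rose and 4 fell, with a median of -0.09, where 9.11% of all genes rose and 11.1% fell. DDIT3 rose by 1.37 ± 0.39 (limma adjusted p = 0.0270), with 730 and 209 normalised counts at pH 6.5, against 115 to 200 at pH 7.4. The call rested on replicate 1 at pH 6.5, without which the difference was 0.47 (adjusted p = 0.392). It was also lost without pH 7.4 replicate 3, 5 or 7 (adjusted p = 0.0531, 0.0595 and 0.0536). Replicate 3 at pH 6.5, at 209, was just above the highest library at pH 7.4, at 200, and had 17867 normalised counts of GDF15. The part of DDIT3 in the GDF15 level was not tested. SESN2, which inhibits mTORC1 signalling, rose by 0.66, a call lost when acid replicate 1 was left out (0.35, adjusted p = 0.412) and when pH 7.4 replicate 3, 5, 6 or 7 was. Those that fell included CTH, an enzyme of cysteine synthesis, with -1.47, SLC38A2, a transporter of neutral amino acids, with -0.93, and PHGDH, the first enzyme of serine synthesis, with -0.80, whose call was lost without pH 6.5 replicate 3 (-0.39, adjusted p = 0.0963). CHAC1, ASNS, TRIB3, ATF3 and ATF4 were not called, with log2 differences of -0.30, -0.03, -0.12, 0.50 and -0.28. Without HCT116 pH 6.5 replicate 1 the count was 0 higher and 9 lower, without replicate 3 it was 4 and 2, and without pH 7.4 replicate 1 it was 4 and 10. Without pH 7.4 replicate 3, 5 or 7, 2, 1 and 1 were higher. The ATF4 target score was -0.07 and -0.55 at pH 6.5 in replicates 1 and 3, against -0.45 to -0.25 at pH 7.4. GDF15 was high in both acid libraries, and its relation to the score was not tested in HCT116.

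In SiHa 13 of 50 ATF4 targets rose and 11 fell, with a median of 0.07, near the 19.7% and 21.1% of all genes. PHGDH rose by 1.32, SLC7A11, the cystine transporter, by 1.25, DDIT3 by 1.23 and PYCR1, of proline synthesis, by 1.07. DDIT4, an mTORC1 inhibitor, and SLC7A5, a transporter of large amino acids, fell with differences of -1.74 and -1.17. ATF4 rose by 0.56 ± 0.12 (limma adjusted p = 0.00389). SiHa was the line whose pH groups overlapped in both GDF15 and the ATF4 target score. Over its 10 libraries Pearson's r was 0.193 (permutation p = 0.594) and Spearman's rho 0.370 (permutation p = 0.296), the only relation of this kind computed, so its adjusted values are the same. The permutations mixed libraries of both pH values, so these p-values do not set the pH difference aside. Without the 2 libraries farthest from the median score r was 0.300. Within pH 6.5 r was 0.335 and within pH 7.4 it was 0.747, over 5 libraries each, which is too few for a test. The mean score was 0.10 at pH 6.5 and 0.01 at pH 7.4, while mean GDF15 was lower at pH 6.5.

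**Figure D4:**
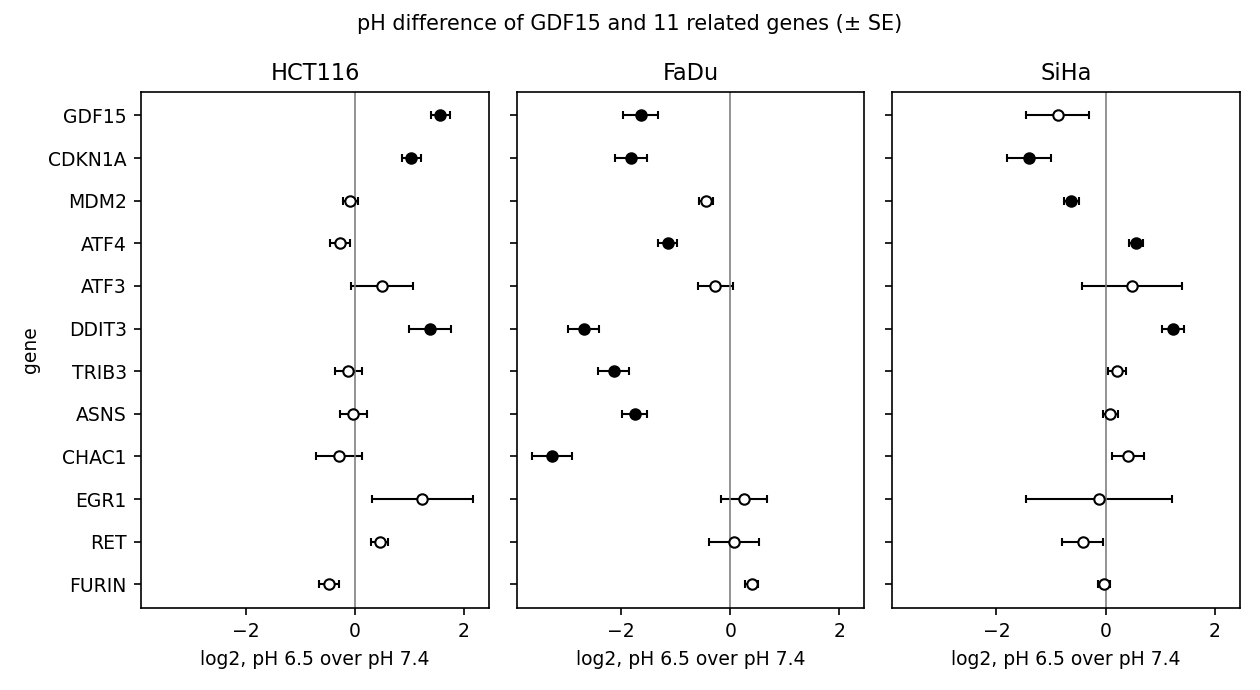
Log2 difference, pH 6.5 over pH 7.4, of GDF15 and 11 related genes in each line (± SE, limma), with filled points where the adjusted p was under 0.05. GDF15 and CDKN1A lie right of 0 in HCT116 and left of 0 in FaDu and SiHa, with the GDF15 point of SiHa not called; ATF4, DDIT3, TRIB3, ASNS and CHAC1 lie left of 0 in FaDu.

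Of other factors known to act on the GDF15 gene, 2 of 16 rose and 4 fell in HCT116 at pH 6.5, where 9.11% of all genes rose and 11.1% fell. JUN, an AP-1 subunit, rose by 1.55. Its call was lost when acid replicate 1 was left out (0.64, adjusted p = 0.498), when pH 7.4 replicate 3, 5 or 7 was (adjusted p = 0.0745, 0.0877 and 0.0755), by DESeq2 (0.0773) and in 1 fit over all 23 libraries (0.258). In those 4 leave-outs and the 1 fit 0 regulators rose. The other that rose was STAT3, a transcription factor, by 0.41. Its call was lost without either acid library, at 0.32 without replicate 1 and 0.49 without replicate 3. It was also lost without pH 7.4 replicate 3, 5, 6 or 7, with the replicate block and in 1 fit over all 23 libraries. MITF fell most, with a log2 difference of -1.90 and means of 37.7 normalised counts at pH 6.5 and 114 at pH 7.4. Its call was lost without pH 6.5 replicate 3, where the difference was -0.86. PPARG, a nuclear receptor, HIF1A, of the hypoxia response, and SP1 fell with log2 differences of -1.07, -0.54 and -0.47. Without pH 6.5 replicate 1 the calls of HIF1A and SP1 were lost (adjusted p = 0.0988 and 0.176), and that of SP1 also without pH 7.4 replicate 5 or 6 (0.0588 and 0.0601). In FaDu 0 of 16 rose and 2 fell, KLF4, an epithelial transcription factor, with -1.19 and NFE2L2, of the antioxidant response, with -1.02, where 4.24% of all genes rose and 3.12% fell. That count was 5 lower without FaDu pH 6.5 replicate 1, 1 without replicate 2 or 5, and 0 without replicate 3 or 4. In SiHa 0 rose and 4 fell, where 19.7% and 21.1% of all genes did, among them PPARG with -2.16 and MYC with -1.03. EGR1 was not called in any of the 3 lines, with log2 differences of 1.24 ± 0.93 in HCT116, 0.25 ± 0.42 in FaDu and -0.13 ± 1.34 in SiHa. It reached 25872 and 36348 normalised counts in replicate 1 of HCT116 and SiHa at pH 6.5, and 19008 and 47281 in replicate 1 of the same lines at pH 7.4. The other HCT116 and SiHa libraries kept had 528 to 3568. HCT116 replicate 1 also had the highest GDF15 of its group at either pH, and the difference between pH values was 1.46 without replicate 1 at pH 6.5 and 1.62 without it at pH 7.4.

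Targets of the lysosomal MiT/TFE factors and the stress kinases were counted beside all genes, of which 9.11% rose and 11.1% fell in HCT116, 4.24% and 3.12% in FaDu, and 19.7% and 21.1% in SiHa. Of the MiT/TFE targets in HCT116 1 of 12 rose and 0 fell, GPNMB, a lysosomal glycoprotein, by 2.31. In FaDu 1 rose and 1 fell, and 0 did either without pH 6.5 replicate 3 or 4. In SiHa 5 rose and 2 fell. Of 11 stress kinases and their factors, 1 rose and 1 fell in HCT116. These were EIF2AK2, the kinase that senses double-stranded RNA, with 1.58, and PPP1R15B, a phosphatase subunit that acts on eIF2-alpha, with -0.65. In FaDu 0 rose and 2 fell, ATF4 and ERN1, the sensor IRE1, with -1.26 for ERN1, and 0 fell without replicate 3, 4 or 5. The other sensors of the unfolded protein response, ATF6 and EIF2AK3, were not called there, with -0.43 and -0.61 (limma adjusted p = 0.0893 and 0.0959). In SiHa 4 rose, ATF4, OMA1, DELE1 and EIF2AK4, with 0.38 for OMA1, 0.28 for DELE1 and 0.30 for EIF2AK4, and ERN1 fell with -0.56.

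On the receptor side, RET had 482 and 438 normalised counts in HCT116 at pH 6.5, against 308 to 384 at pH 7.4, a log2 difference of 0.45 that was not called (limma adjusted p = 0.0715). It had 27.6 to 60.4 in FaDu at pH 6.5 and 36.2 at pH 7.4, and 4.31 to 17.5 in SiHa at pH 6.5 and 10.0 to 21.4 at pH 7.4. GFRAL was not analysed here. FURIN, the main protease known to cleave such precursors, was not called in any line, with 2782 ± 112 in HCT116 at pH 6.5 and 3921 ± 939 at pH 7.4. In SiHa, where GDF15 was low, the related convertases PCSK5, PCSK6 and PCSK7 fell with log2 differences of -1.38, -1.35 and -0.83. MMP14, a membrane protease, fell by 1.41 in FaDu, a call lost without pH 6.5 replicate 2, 3, 4 or 5 (adjusted p = 0.0545, 0.0748, 0.0719 and 0.0569). Of the receptor and processing genes tested, 0 of 6 were called in HCT116, where 20.2% of all genes were called. In FaDu 1 of 6 fell, where 3.12% of all genes fell. In SiHa 3 of 7 fell, where 21.1% of all genes fell, and 0 rose in any line.

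Other secreted factors linked to cachexia did not share one pattern with GDF15. In HCT116 4 of 15 tested rose and 2 fell, where 9.11% of all genes rose and 11.1% fell. The count was 2 higher and 1 lower without pH 6.5 replicate 1, and 6 higher and 0 lower of 16 without replicate 3. CXCL8, a neutrophil chemokine, rose by 2.85, PTHLH, which drives fat browning in mice, by 2.63, AZGP1, a lipid-mobilising factor, by 2.38 and GDF11, a relative of myostatin, by 0.82. LCN2, an iron-carrier-binding lipocalin, and IL1A, a cytokine, fell with log2 differences of -2.59 and -1.58. Calls were lost for CXCL8 and GDF11 without pH 6.5 replicate 1 (adjusted p = 0.0971 and 0.0689) and for LCN2 without replicate 3 (-1.57, adjusted p = 0.0542). That of IL1A, with a mean of 2.86 normalised counts at pH 6.5, against 10.99 at pH 7.4, was lost without either acid library and without pH 7.4 replicate 3, 5 or 6, and by edgeR and DESeq2 (adjusted p = 0.0603 and 0.118). CXCL8, PTHLH and AZGP1 averaged 352, 47.4 and 64.5 normalised counts at pH 6.5, against 45.7, 7.42 and 12.6 at pH 7.4. In FaDu 0 of 18 rose and 1 fell, the gut hormone FGF19, with a log2 difference of -1.73, where 4.24% of all genes rose and 3.12% fell, and that call was lost without pH 6.5 replicate 3, 4 or 5. Without replicate 1 the count was 2 higher and 6 lower. In SiHa 0 of 15 rose and 3 fell, ADM, a vasodilator peptide, with -1.31, GDF11 with -0.59 and IL1B, a cytokine, with -0.99. Of all genes 19.7% rose and 21.1% fell there. The call of IL1B was lost without pH 6.5 replicate 6 or 7, without pH 7.4 replicate 1, 6 or 7, and in 1 fit over all 23 libraries, with adjusted p of 0.0510 to 0.148. IL6 was under the filter in HCT116, with 0 and 0.64 normalised counts on average at pH 6.5 and pH 7.4.

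Genes most like GDF15 over the 23 libraries, by Pearson's r of log2 values among 14351 genes, were SNHG29, RPL27A, PWWP3B, HS3ST1, RPLP2, ZNF385B, UGT8, ZSCAN16, MET and SLC37A3, with r of 0.972 to 0.983. These values describe the order of the lines, since libraries of a line share their background. PWWP3B had mean levels of 823 normalised counts in HCT116 at pH 6.5 and 340 at pH 7.4, 58.4 in FaDu at pH 6.5 and 188 at pH 7.4, and 0 in SiHa at both. The hepatocyte growth factor receptor MET averaged 20712 in HCT116 at pH 6.5 and 17429 at pH 7.4, 6788 in FaDu at pH 6.5 and 7163 at pH 7.4, and 1271 in SiHa at pH 6.5 and 2100 at pH 7.4. After the mean of each group was taken off, the 10 nearest were TSPAN18, PEX6, PPP1R3F, EPHA6, ARHGAP22, RAMAC, SPOCD1, S100A4, NOTCH3 and SOX8, with r of 0.753 to 0.808. On that scale CDKN1A had an r of 0.56 and MDM2 of 0.44, against -0.03 and 0.78 over the 23 libraries without that step. Other listed genes were as high, with 0.58 for DNAJB9 and FURIN and 0.57 for MCOLN1, a MiT/TFE target. Of the 50 ATF4 targets 0 had an r over 0.5, with a median of 0.07, against 542 of all 14351 genes (3.78%), with a median of 0.01. SiHa libraries made up 91.3% of the within-group sum of squares of GDF15, HCT116 libraries 3.31% and FaDu libraries 5.43%. This likeness thus describes mainly the 10 SiHa libraries, where GDF15 rested on 6 to 54 reads.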

How the data were processed

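RNA of 30 libraries was sequenced and processed by the authors with bcl2fastq 2.20, FastQC, Trimmomatic 0.38, STAR 2.6.1d and DESeq2 1.22.2 on GRCh37, per the submitters' processing notes. How reads were assigned to genes (program, strand, gene models) is not given in the sources used here. Deposited signal values are normalised counts: each was a whole multiple of its library's smallest step, within 0.01, for 100% of values, and dividing by that step gave whole reads. Symbols matched 35466 of 38122 identifiers, and 2656 had none. Per-length ranks used exon lengths of GRCh38 genes; promoter sequences are RefSeq's on GRCh38.p14.

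The main test was limma 3.58.1 with an intensity trend on log2(normalised count + 1), over genes averaging 10 or more in one pH group, 2-sided, with Benjamini-Hochberg adjustment over all genes tested and a threshold of 0.05. Fold changes on this scale understate those of low genes. Each line had its own fit, and 1 fit over 23 libraries gave differences between lines. A lone library was assumed to vary like the others. edgeR 4.0.16 and DESeq2 1.42.0 on the recovered reads were alternatives, in R 4.3.3; scores and figures used Python 3.11.15. Line-restricted genes had at least 10 CPM in every library of their line and at most 1% of that elsewhere. On simulated counts with 200 changed genes a line, the test recovered 78.9%, 39.8% and 92.3% of log2 changes of 1 in HCT116, FaDu and SiHa. Of changes of 2 it recovered 100%, 99.1% and 100%. The simulation gave every gene the same set dispersion and had no outlying library. These rates do not carry over to GDF15 in SiHa, whose SD was 114% of the mean at pH 6.5 and 47.6% at pH 7.4.

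GDF15 and all gene lists were chosen with earlier results of these data known. Of 184 list entries 182 matched. 1 gene, with the targets listed for it, is not reported here. Named genes were 9 fixed factors and targets, RET and FURIN, up to 6 called members per list and line by size with a mean of at least 100, and the 10 nearest to GDF15 on each scale; PTHLH, AZGP1, IL1A, IL1B, IL6 and the sequence examples were named after their values were seen. The permutation p-values used 100000 resamples. Intervals and the limit of 3 reads for a count of 0 cover counting error only.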

Additional observations from a re-analysis of the deposited data

Results flagged for a closer look

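Chance flags about 1 in 20 groups of the size used here. GDF15 in SiHa at pH 6.5 had 1 library far from the other 4, replicate 4 at 75.6 normalised counts (54 reads). Among FaDu libraries at pH 6.5, replicate 1 stood apart by its ATF4 target score of 0.38, against -0.03 to 0.04 in the other 4.

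The pH difference of GDF15 differed between lines by the test of the difference itself. It was higher in HCT116 than in SiHa by 2.44 and than in FaDu by 3.21 on the log2 scale (limma adjusted p = 0.0134 and 0.0222). In HCT116 the 2 libraries at pH 6.5 were above all 5 at pH 7.4, in FaDu the 5 at pH 6.5 were below the 1 at pH 7.4, and in SiHa the groups overlapped.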

How the results depend on the processing

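With all libraries as labelled, the pH difference of GDF15 was -1.17 in HCT116, also with the replicate block, where it reversed. HCT116 minus SiHa was then -0.29, also reversed, and HCT116 minus FaDu 0.91 (adjusted p = 0.655). That setting adds the 7 libraries with reads of another line, and it gave 2 ATF4 targets higher and 14 lower in FaDu. In 1 fit over the 23 libraries HCT116 stood at 1.56 and FaDu at -1.64, both past no threshold, with 8 ATF4 targets lower in HCT116. Without a filter FaDu stood at -1.64.

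With single replicates left out, FaDu ran from -1.77 to -1.51, HCT116 from 1.45 to 1.67 and SiHa from -1.41 to -0.50. HCT116 minus SiHa ran from 2.06 to 2.97 and HCT116 minus FaDu from 3.08 to 3.33. In FaDu, ATF4 targets ran from 0 to 1 higher and 10 to 44 lower. In HCT116, ATF4 targets ran from 0 to 4 higher and 2 to 10 lower. Genes called in FaDu ran from 66 to 7039, against 1411, and were 2685 with DESeq2, 2579 in 1 fit, 9115 as labelled and 8851 as labelled with the block. In HCT116 2198 were called without pH 6.5 replicate 1 and 1407 as labelled with the block, against 3819. FaDu minus SiHa called 6284 as labelled, against 3698.

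The replicate block gave 1.46 in HCT116 and -0.88 in SiHa (adjusted p = 0.208) and changed neither call; ATF4 targets higher in HCT116 were then 1. Same-numbered SiHa libraries had correlations of 0.31, 0.00028, -0.0044, 0.12 and 0.059 between their deviations, and those of HCT116 0.17 and 0.055, so numbers were not taken to pair libraries; 3 of the 5 SiHa libraries correlated best with their own number. FaDu libraries kept share 1 number, which allows no block. FaDu over SiHa at pH 6.5, HCT116 over SiHa at pH 7.4 and FaDu minus SiHa kept direction and side of the threshold in the 29 alternatives of each. Low reads limit GDF15 in SiHa, and 1 library limits FaDu at pH 7.4. Leaving single libraries out of the fit over 23, and the list counts beyond those as labelled, by edgeR and without SiHa pH 7.4 replicates 6 and 7, were added after seeing the data.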
